A study of Chlamydomonas reinhardtii with 42 samples.

Results

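The interaction of acetate and high light was described for every gene from 12 of the 42 RNA-seq libraries, those of 4 conditions with 3 libraries each on the first day of the experiment. It was taken as the change after 60 min of high light (HL) with acetate minus the change after 60 min of HL without acetate, on the log2 scale. The same number is the acetate effect after HL minus the acetate effect in low light (LL). A value above 0 therefore says that a transcript rose more, or fell less, in HL when acetate was present. The green alga Chlamydomonas reinhardtii was used throughout, as batch cultures of strain CC-125, a wild type of mating type mt+. The cells of all 12 libraries were first grown in TAP, an acetate-containing medium, and then kept for 24 h at 5 µmol photons in HSM, a mineral medium with no organic carbon. The groups were HSM in LL (5 µmol photons) at 240 min, HSM with 20 mM sodium acetate in LL at 240 min, and both media at 300 min after 60 min of HL (300 µmol photons) that began at 240 min. The HL libraries were taken 60 min later than the LL libraries, so the light and the extra hour cannot be told apart, although both media share that hour. The study calls the replicates biological. All 42 libraries were fitted together, so the p-values measure the spread between replicates over the whole series.

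In an aquatic alga, CO2 reaches Rubisco slowly, and Chlamydomonas answers scarce CO2 with a carbon-concentrating mechanism (CCM). Bicarbonate is carried through the plasma membrane, the chloroplast envelope and the thylakoid, and carbonic anhydrases turn it back into CO2 near Rubisco in the pyrenoid, a starch-sheathed compartment of the chloroplast. Strong light also induces energy-dependent quenching (qE), in which LHCSR and PSBS proteins let the antenna of photosystem II shed excess energy as heat. Acetate is taken up and metabolised beside photosynthesis, and ample CO2 or acetate is known to lower CCM transcripts.

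Total counts were 19558462 to 34098899 per library (median 24760892), which limits only genes with few counts. The 100 most abundant genes took 43.5% to 64.8% of the counts, and the TMM scaling factors were 0.90 to 1.02 in HSM in LL, 1.21 to 1.35 with acetate in LL, 1.19 to 1.49 in HSM in HL and 1.51 to 1.57 with acetate in HL. The first 2 principal components of the 12 libraries carried 46.5% and 39.1% of the variance. Libraries that stood apart from their group were replicate 1 of HSM in LL, replicate 1 of HSM in HL and replicate 3 of acetate in LL, with log2 deviations from the other replicates of SD 0.43, 0.43 and 0.36 over all genes, where the other 9 libraries had 0.20 to 0.33. Replicate 1 of HSM in LL was the lowest of its group in 27 of 38 CCM genes with a higher interaction, and in 44.1% of all genes. Replicate 1 of HSM in HL was the highest of its group in 33 of those 38 genes, and in 37.6% of all genes. Values without these libraries are given beside the results that they move most. In bulk RNA, fewer cells and less RNA per cell cannot be told apart.

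Acetate and HL did not add up for 4877 of 13886 genes tested (35.1%), called with edgeR's quasi-likelihood test at a Benjamini-Hochberg adjusted p under 0.05. The interaction was higher for 2183 genes (15.7%) and lower for 2694 (19.4%), and 2402 (17.3%) reached a log2 size of at least 1, of which 1320 (9.51%) were higher and 1082 (7.79%) lower. Over all genes the median was -0.09, with quartiles at -0.53 and 0.43 and a range of -5.78 to 7.73. Scaling by library size alone moved the median of all genes to -0.33 and left 934 higher and 2675 lower calls, whereas RLE scaling gave 2386 and 2379, so the balance of the directions rests on the scaling.

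Both factors changed fewer genes in the presence of the other. In HSM, HL changed 9087 genes (65.4%), raising 5136 (37.0%) and lowering 3951 (28.5%). With acetate it changed 7196 (51.8%), raising 3789 (27.3%) and lowering 3407 (24.5%). Acetate changed 8998 genes (64.8%) in LL, raising 4563 (32.9%) and lowering 4435 (31.9%), and changed 6965 (50.2%) in HL, raising 3182 (22.9%) and lowering 3783 (27.2%). Over all genes tested, the absolute HL response was smaller with acetate for 61.9%, and the absolute acetate effect was smaller in HL for 63.9%. These shares depend on which genes are taken: the first was 77.6% of genes called in HSM and 45.7% of genes called with acetate, and the second was 81.1% of genes called in LL and 3483 of 6965 genes called in HL. They are a description and were not tested.

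**Figure D1:**
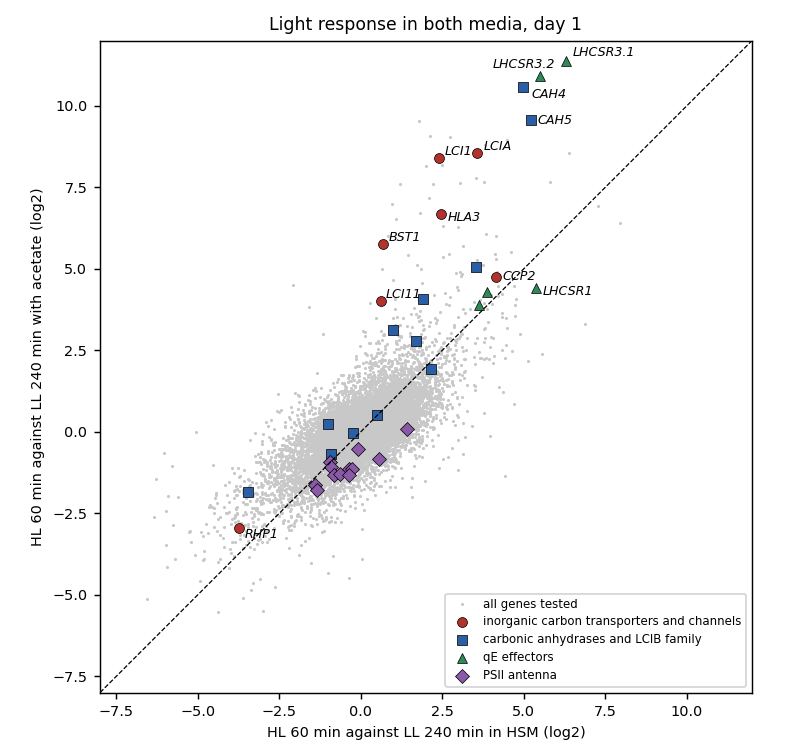
Log2 change after 60 min of HL in HSM (x axis) against the same change with acetate (y axis), with 1 point per gene and the named lists in colour. The dashed line marks equal responses; HLA3, LCI1, LCIA, BST1, CAH4, CAH5 and the LHCSR3 genes lie far above it, with changes of 5.77 to 11.38 with acetate and of 0.69 to 6.29 in HSM.

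The genes with an interaction were then sorted by where each factor had an effect. Of the 2183 genes with a higher interaction, 1050 (48.1%) were lowered by acetate in LL and not called in HL. A further 564 (25.8%) were lowered in both lights and 143 (6.6%) were lowered in LL and raised in HL. Over all genes tested these shares were 13.8%, 17.1% and 1.0%. Seen by light, 849 (38.9%) of these genes fell in HSM alone and 443 (20.3%) rose with acetate alone. Of the 2694 genes with a lower interaction, 1138 (42.2%) were raised by acetate in LL and not called in HL, beside 13.8% of all genes. In HL, 1270 (47.1%) of them rose in HSM alone, beside 16.1% of all genes. The interaction is the difference of these same effects, so selecting genes by it favours such patterns. A call in one light or medium and not in the other does not by itself show a difference, but each of these genes passed the test of the interaction.

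Genes that import inorganic carbon showed the strongest pattern. HLA3, LCI1, LCIA, BST1 and LCI11 all rose far more in HL with acetate than in HSM. They stood far lower in LL with acetate, and after 60 min of HL the mean levels of both media were at most 2.08-fold apart. Of the 8 transporters and channels listed, 7 were tested, 5 had a higher interaction (background 15.7%) and 0 a lower one, with a median of 4.22. HL raised 5 of the 7 in HSM and 6 with acetate, beside 37.0% and 27.3% of all genes. Acetate lowered 6 in LL, beside 31.9% of all genes, and 2 in HL, near the 27.2% of all genes.

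Levels are given as CPM, counts scaled to a common library size after TMM. HLA3, an ABC-type bicarbonate transporter of the plasma membrane, stood in LL at 201, 1130 and 1099 CPM in HSM and at 29.98, 29.92 and 28.43 CPM with acetate. After HL it stood at 4574, 4300 and 4501 CPM in HSM and at 2895, 3036 and 3139 CPM with acetate. Replicate 1 of HSM in LL was far below the other 2, and acetate and HSM overlapped in neither light. A lack of overlap was common: of 13886 genes tested, the media overlapped for 4167 in LL and 4928 in HL. The mean level rose 103-fold in HL with acetate and 5.50-fold in HSM, and the interaction was 4.22 (SE 0.54, adjusted p = 3.17e-07), or 4.68 without that replicate. The acetate effect was -4.78 in LL and -0.56 in HL.

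LCI1, a channel for inorganic carbon in the plasma membrane, stood in LL at 51.8, 119 and 91.1 CPM in HSM and at 0.13, 0.74 and 2.54 CPM with acetate, the last 3 values resting on 4, 19 and 97 counts. After HL it stood at 650, 374 and 362 CPM in HSM and at 388, 361 and 469 CPM with acetate, where the groups overlapped. The HL change was 8.4 with acetate and 2.41 in HSM, and the interaction was 5.99 (SE 0.54, adjusted p = 2.54e-10), or 7.52 without replicate 3 of acetate in LL. The acetate effect was -6.18 in LL and -0.18 in HL (adjusted p = 0.665).

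LCIA, which carries bicarbonate through the chloroplast envelope, stood in LL at 15.4, 125 and 132 CPM in HSM and at 0.68, 0.82 and 2.73 CPM with acetate. In HL it stood at 1259, 1038 and 966 CPM in HSM and at 563, 530 and 562 CPM with acetate, so acetate lay below HSM in both lights without overlap. The interaction was 4.97 (SE 0.66, adjusted p = 6.57e-07), or 5.47 without replicate 1 of HSM in LL and 5.94 without replicate 3 of acetate in LL. The acetate effect was -5.95 in LL, and in HL it was -0.98 (adjusted p = 0.0523). In HL it was called in 8 of 22 alternatives, 4 of them without 1 library, with adjusted p up to 0.145 over all alternatives.

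BST1, a bestrophin-like bicarbonate channel of the thylakoid, differed from the genes above in its response in HSM. Its levels in HSM were 26.1, 27.6 and 28.2 CPM in LL and 81.7, 24.4 and 26.3 CPM in HL, where replicate 1 alone was high. With acetate they were 1.17, 1.13 and 2.62 CPM in LL and 92.8, 66.8 and 116 CPM in HL. The HL change was 5.77 with acetate. In HSM it was 0.69 (adjusted p = 0.0753) with all libraries and -0.11 (adjusted p = 0.786) without that replicate, and it was called with library size only (1.12, adjusted p = 0.0075) and without replicate 2 or 3 of HSM in HL (up to 0.98). The interaction was 5.07 (SE 0.54, adjusted p = 9.27e-09), or 5.87 without it. The acetate effect was -4.01 in LL. In HL it was 1.06 (adjusted p = 0.00985) although the groups overlapped, with 1.86 (adjusted p = 2.96e-05) without that replicate, and the call was lost without replicate 2 or 3 of HSM, without replicate 3 of acetate and with only the libraries of the contrast, with values down to 0.77 and adjusted p up to 0.0855.

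LCI11, another bestrophin-like protein induced at low CO2, stood in LL at 197, 294 and 273 CPM in HSM and at 16.2, 14.8 and 22.04 CPM with acetate. After HL the level was 475, 367 and 328 CPM in HSM and at 274, 261 and 323 CPM with acetate, just below HSM. The interaction was 3.4 (SE 0.23, adjusted p = 4.75e-13), with HL changes of 4.01 with acetate and 0.61 in HSM. The other members were CCP2, a low-CO2-inducible protein of the chloroplast envelope, with an interaction of 0.62 (adjusted p = 0.178), and RHP1, a Rhesus-like CO2 channel, with 0.80 (adjusted p = 0.088). RHP2 had too few counts to be tested, with at most 62 in any of the 42 libraries.

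**Figure D2:**
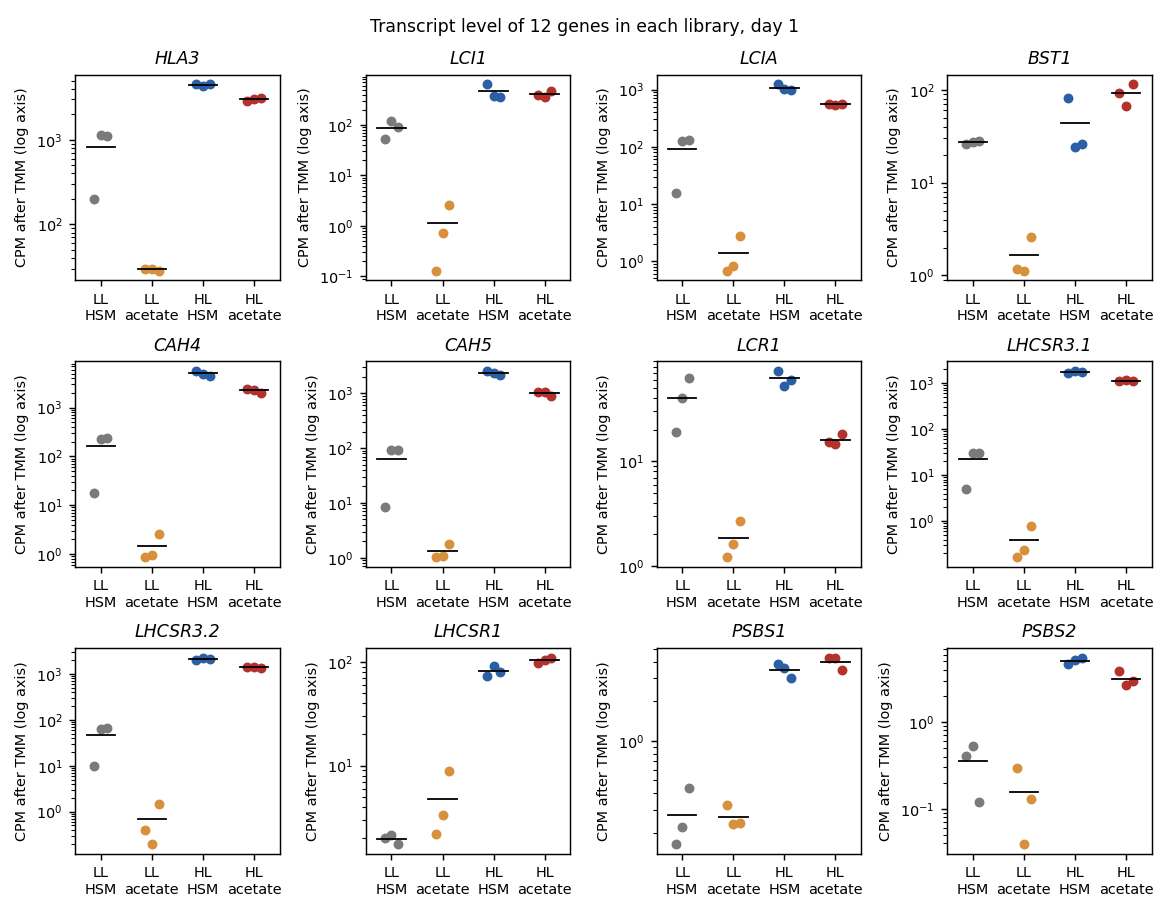
Levels of 12 genes in the 4 groups, in CPM on a log axis, with 1 point per library and a line at the mean of 3. For HLA3, LCIA, CAH4 and LHCSR3.1 the LL libraries with acetate lie far below all other groups, while the HL libraries of both media lie closer together, with acetate below HSM.

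Several carbonic anhydrases followed the same pattern. Of the 12 carbonic anhydrases and LCIB relatives, all tested, 8 had a higher interaction and 0 a lower one, beside 15.7% and 19.4% of all genes. The median of the 12 was 1.39. CAH4 and CAH5, mitochondrial beta-type carbonic anhydrases whose genes are next to each other in the RefSeq gene order, had the largest values of this list, from which CAH1 is missing because no table used here pairs it with an identifier.

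CAH4 stood in LL at 18.1, 223 and 239 CPM in HSM and at 0.85, 0.93 and 2.52 CPM with acetate. In HL it stood at 5704, 4899 and 4506 CPM in HSM and at 2429, 2331 and 2041 CPM with acetate. The groups overlapped in neither light, and replicate 1 of HSM in LL was again low. The HL change was 10.58 with acetate, or 11.31 without the high replicate 3 of acetate in LL, and 4.98 in HSM. The interaction was 5.60 (SE 0.88, adjusted p = 8.45e-06), or 6.13 without replicate 1 of HSM in LL and 6.33 without replicate 3 of acetate in LL. The acetate effect was -6.75 in LL and -1.15 in HL (adjusted p = 0.0837). In HL it was called in 2 of 22 alternatives, with only the libraries of the contrast and without replicate 1 of HSM in LL.

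CAH5 stood in LL at 8.39, 90.6 and 91.8 CPM in HSM and at 1.01, 1.09 and 1.81 CPM with acetate, and in HL at 2579, 2362 and 2192 CPM and 1048, 1064 and 901 CPM. Its interaction was 4.34 (SE 0.75, adjusted p = 3.72e-05), with 3.97 to 4.85 when 1 library was left out. The acetate effect was -5.58 in LL and -1.24 in HL (adjusted p = 0.0306), and the call in HL was lost in 7 of 22 alternatives (adjusted p up to 0.153), 5 of them without 1 library, which was replicate 1 or 2 of HSM in HL or any replicate of acetate in HL. LCIB and LCIC form a complex around the pyrenoid that is thought to recapture CO2. LCIB stood at 678, 857 and 545 CPM in HSM and 84.4, 71.9 and 102 CPM with acetate in LL, and at 2066, 1137 and 914 CPM and 701, 647 and 903 CPM in HL. Its interaction was 2.14 (SE 0.32, adjusted p = 4.47e-06), and its partner LCIC had 2.17 (SE 0.28, adjusted p = 4.65e-07), with a level in HL of 2831, 2199 and 1888 CPM in HSM and 1257, 1113 and 1356 CPM with acetate. For LCIB the acetate effect of -0.87 in HL depended on replicate 1 of HSM in HL, without which it was -0.45 (adjusted p = 0.0866).

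The other members of this group moved less. CAH2, a periplasmic carbonic anhydrase, had an interaction of 1.60 (adjusted p = 0.0101), the LCIB relative LCID had 1.53 (adjusted p = 0.000982), CAH6 had 1.25 (adjusted p = 4.62e-05) and CAH3, the carbonic anhydrase of the thylakoid lumen, had 1.1 (adjusted p = 7.25e-06). CAH3 stood in LL at 68.4, 76.3 and 75.5 CPM in HSM and at 32.8, 30.1 and 32.9 CPM with acetate, and in HL at 278, 232 and 198 CPM and 216, 213 and 233 CPM, where the media overlapped. CAH7, CAH8, CAH9 and LCIE had values of 0.19, 0.00, 0.23 and -0.22 and did not pass the test. Without replicate 1 of HSM in LL, 7 of the 12 had a higher interaction, with a median of 1.19.

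The wider CCM list of the study also holds Rubisco, the pyrenoid and its starch sheath. Of its 71 tested genes, 38 had a higher interaction and 5 a lower one, beside 15.7% and 19.4% of all genes. The median was 0.77, beside -0.09 over all genes. Without replicate 1 of HSM in LL the counts were 35 and 3, without replicate 1 of HSM in HL they were 38 and 5, and without replicate 3 of acetate in LL they were 34 and 3. Of these 38 genes, 18 were lowered by acetate in both lights, 13 in LL alone, and 5 were lowered in LL and raised in HL. Over all genes with a higher interaction these shares were 25.8%, 48.1% and 6.6%. HL raised 19 of the 38 in both media, beside 12.0% of all genes with a higher interaction.

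RCA1 and EPYC, described here after their values were seen, had a higher interaction together with a fall in HSM. RCA1, Rubisco activase, stood in LL at 2649, 2972 and 2759 CPM in HSM and at 505, 594 and 556 CPM with acetate. After HL the level was 940, 649 and 618 CPM in HSM and at 912, 798 and 999 CPM with acetate, where the groups overlapped. HL thus lowered RCA1 in HSM by 1.93 and raised it with acetate by 0.71, and the interaction was 2.64 (SE 0.22, adjusted p = 4e-11).

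EPYC, the linker that gathers Rubisco in the pyrenoid, stood in LL at 2230, 3366 and 3052 CPM in HSM and at 692, 628 and 546 CPM with acetate, and in HL at 1092, 613 and 502 CPM and 909, 799 and 949 CPM. It fell by 1.97 in HSM in HL and rose by 0.51 with acetate, and the interaction was 2.48 (SE 0.31, adjusted p = 1.57e-07). SBE3 and SBE4, starch branching enzymes, had interactions of 2.32 and 2.11 and also fell in HSM, by 1.73 and 2.24. RBCS1, a small subunit of Rubisco, had 0.66 (adjusted p = 0.0263), and the other small-subunit gene, RBCS2, a near copy for which the handling of reads that fit both is not stated, had -0.23 (adjusted p = 0.64).

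SMM7 had the largest interaction of this list outside the transporters and carbonic anhydrases, 4.89 (SE 0.36, adjusted p = 2.1e-12). It stood in LL at 39.3, 88.4 and 80.1 CPM in HSM and at 1.66, 0.82 and 1.81 CPM with acetate, and in HL at 314, 224 and 202 CPM and 154, 152 and 157 CPM. STT7, the kinase of state transitions, which move antenna between the photosystems, stood in LL at 180, 266 and 243 CPM in HSM and at 79.2, 73.5 and 74.95 CPM with acetate. In HL it stood at 265, 243 and 228 CPM in HSM and 213, 203 and 216 CPM with acetate, and its interaction was 1.38 (adjusted p = 5.87e-07). The 5 CCM genes with a lower interaction were Cre10.g452250 at -1.5, Cre16.g668200 at -1.24, TEF9 at -0.97 (adjusted p = 9.18e-05), HST1 at -0.51 and FTT1 at -0.45, of which Cre10.g452250, Cre16.g668200 and FTT1 are listed as found in the pyrenoid.

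**Figure D3:**
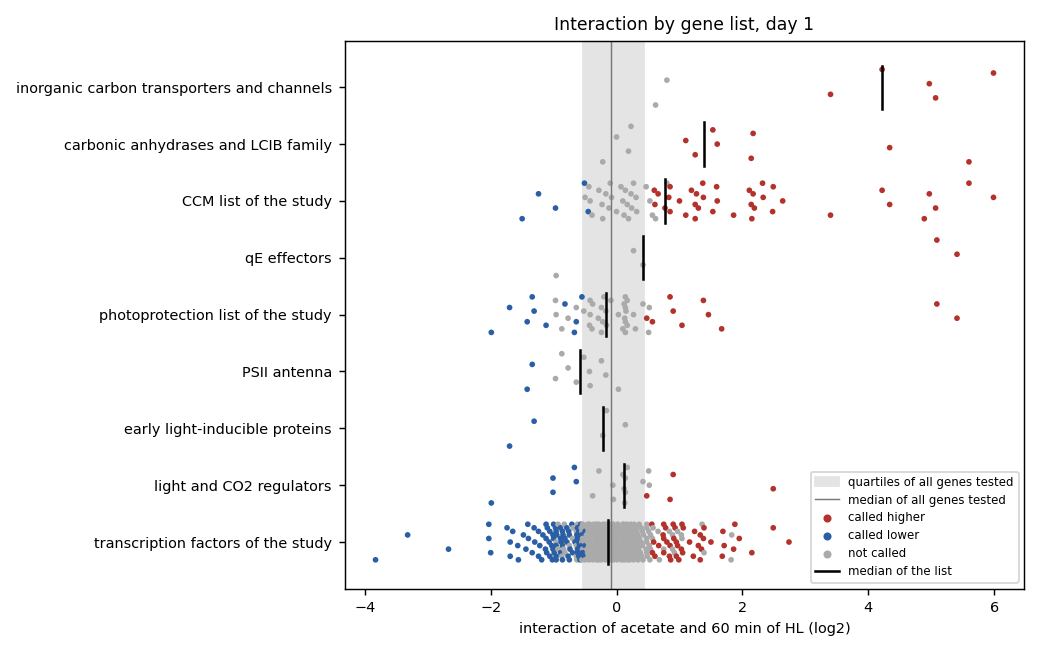
Log2 interaction of each tested gene, by list (1 point per gene, red where called higher, blue where called lower and grey where not called, with a black bar at the median of the list), over a grey band between the quartiles of all genes (-0.53 to 0.43). Most transporters and carbonic anhydrases lie above the band, and the antenna genes have a median of -0.58, below the band.

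Among the effectors of qE the interaction split. The LHCSR3 genes had a higher interaction and LHCSR1, PSBS1 and PSBS2 did not pass the test. This makes 2 of 5 higher and 0 lower, beside 15.7% and 19.4% of all genes. HL raised all 5 in both media, beside 37.0% of all genes in HSM and 27.3% with acetate. After HL, 0 of the 5 were called between media in the fit of all libraries. LHCSR1, LHCSR3.1, LHCSR3.2 and PSBS2 were called when only the libraries of the contrast were fitted. Their media did not overlap in HL, but over all genes tested the media overlapped in HL for only 4928 of 13886.

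LHCSR3.1 stood in LL at 4.97, 31.2 and 30.4 CPM in HSM and at 0.16, 0.23 and 0.79 CPM with acetate, the latter from 5, 6 and 30 counts. In HL it stood at 1629, 1870 and 1720 CPM in HSM and at 1147, 1163 and 1106 CPM with acetate. The groups overlapped in neither light. The HL change was 11.38 with acetate, or 12.47 without replicate 3 of acetate in LL, and 6.29 in HSM. The interaction was 5.09 (SE 0.69, adjusted p = 7.96e-07), or 5.56 without replicate 1 of HSM in LL and 6.18 without replicate 3 of acetate in LL.

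LHCSR3.2 stood in LL at 9.66, 64.2 and 65.4 CPM in HSM and at 0.39, 0.19 and 1.44 CPM with acetate, and in HL at 1964, 2256 and 2084 CPM and 1441, 1427 and 1357 CPM. Its interaction was 5.41 (SE 0.64, adjusted p = 8.02e-08), or 5.89 without replicate 1 of HSM in LL and 6.67 without replicate 3 of acetate in LL, and the acetate effect was -5.99 in LL and -0.58 in HL (adjusted p = 0.215). The pair are neighbouring, nearly identical genes, and how reads that fit both were counted is not stated, so their separate values are uncertain. The same holds for the PSBS pair.

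LHCSR1, a relative of LHCSR3 that also serves qE, stood in LL at 2.00, 2.13 and 1.75 CPM in HSM and at 2.18, 3.34 and 8.86 CPM with acetate, and in HL at 72.7, 90.6 and 79.6 CPM and 97.3, 104 and 110 CPM. The interaction was -0.96 (SE 0.41, adjusted p = 0.0696), and it depended on the high replicate 3 of acetate in LL, without which it was -0.13 (adjusted p = 0.807, with 0.0081 to 0.807 over all alternatives). Without replicate 1 or 2 of that group it was -1.30 (adjusted p = 0.0081) and -1.15 (adjusted p = 0.0362).

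PSBS1 and PSBS2 had few counts in LL, with 3 to 12 counts in HSM libraries and 1 to 10 with acetate. After HL, PSBS1 stood at 3.82, 3.61 and 3.01 CPM in HSM and 4.31, 4.29 and 3.46 CPM with acetate. PSBS2 stood at 4.67, 5.15 and 5.53 CPM in HSM and 3.89, 2.66 and 2.96 CPM with acetate. The interactions were 0.27 (SE 0.84, adjusted p = 0.834) and 0.42 (SE 1.02, adjusted p = 0.787). With such errors a small difference was not detectable at this depth, while a larger one could be called. After 15 min of HL the interaction of PSBS1 was -2.59 (SE 0.84, adjusted p = 0.0181).

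**Figure D4:**
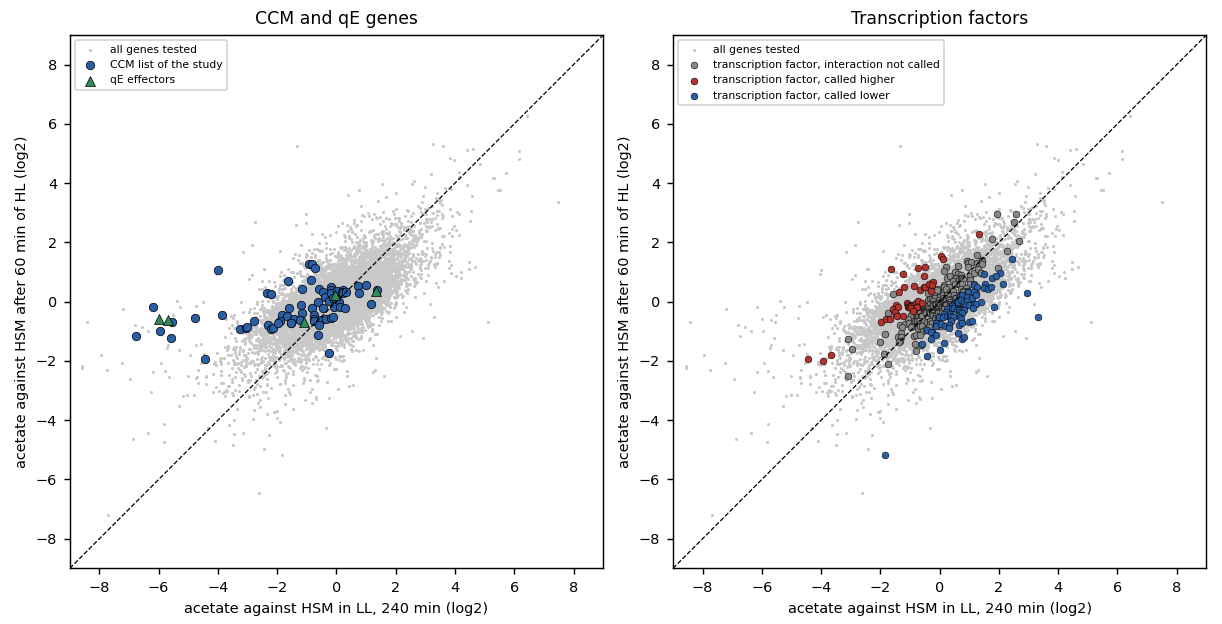
Log2 acetate effect in LL (x axis) against that after 60 min of HL (y axis), with CCM and qE genes in the left panel and transcription factors in the right panel, and 1 point per gene. The genes at the far left, such as CAH4 (-6.75 in LL), LCI1 (-6.18) and LHCSR3.2 (-5.99), lie much nearer to 0 on the y axis, at -1.15, -0.18 and -0.58. Over all genes the quartiles on the y axis are -0.50 and 0.38.

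Of the 12 antenna genes of photosystem II, LHCBM and LHCB proteins that collect light, 0 had a higher interaction and 2 (16.7%) a lower one, beside 19.4% of all genes, with a median of -0.58, or -0.33 without replicate 1 of acetate in LL. Acetate raised 11 of them in LL and 10 in HL, beside 32.9% and 22.9% of all genes. HL lowered 4 in HSM, near the 28.5% of all genes, and 8 with acetate, beside 24.5%.

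LHCB7 stood in LL at 3.99, 3.91 and 4.57 CPM in HSM and at 14.0, 13.8 and 11.5 CPM with acetate, and in HL at 8.85, 11.5 and 13.16 CPM and 15, 13 and 14 CPM. It rose in HL in HSM and had already reached the HL level in LL with acetate, and its interaction was -1.34 (SE 0.20, adjusted p = 3.04e-06). LHCBM8 stood in LL at 14.1, 13.37 and 12.7 CPM in HSM and at 275, 136 and 85.6 CPM with acetate, and in HL at 24.7, 16.9 and 18.2 CPM and 108, 84.3 and 84.9 CPM. Its interaction of -1.42 (SE 0.56, adjusted p = 0.0481, 0.0176 to 0.26 over the alternatives) lost the call in 15 alternative fits, 10 of them without 1 library, and was -0.83 (adjusted p = 0.26) without replicate 1 of acetate in LL.

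Of the 5 early light-inducible proteins, relatives of the antenna that appear under light stress, 2 had a lower interaction, beside 19.4% of all genes. ELI1 stood in LL at 1.96, 1.82 and 1.99 CPM in HSM and at 6.45, 7.54 and 6.11 CPM with acetate, and in HL at 5.34, 5.86 and 5.65 CPM and 7.94, 7.58 and 7.99 CPM. Its interaction was -1.31 (SE 0.21, adjusted p = 9.71e-06), and that of ELI5 was -1.70 (SE 0.44, adjusted p = 0.00287). In the photoprotection list of the study, which holds the qE, antenna and light-signalling genes, 10 of 55 (18.2%) had a higher interaction and 10 a lower one, near the 15.7% and 19.4% of all genes, with a median of -0.16. Those higher beside the LHCSR3 genes and STT7 included the channelrhodopsins CHR2 (1.67) and CHR1 (1.04), light-gated channels of the eyespot, and PSBP2 (1.46).

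Of 22 regulators of light and CO2 responses tested, 4 (18.2%) had a higher interaction and 5 (22.7%) a lower one, near the 15.7% and 19.4% of all genes, with a median of 0.13 that turned to -0.13 when only library size was used for scaling. CIA5, the master regulator of the CCM, had an interaction of 0.10 (adjusted p = 0.605).

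LCR1, a MYB factor that induces low-CO2 genes, stood in LL at 18.9, 39.9 and 62.0 CPM in HSM and at 1.21, 1.63 and 2.67 CPM with acetate. After HL the level was 73.4, 52.3 and 60.1 CPM in HSM and at 15.4, 14.7 and 18.3 CPM with acetate, so it stayed below HSM in both lights without overlap. HL raised LCR1 by 3.11 with acetate, and its change in HSM, 0.62 (adjusted p = 0.0481), lost the call in 11 of 21 alternatives, RLE, DESeq2 and 8 of the 12 fits without 1 library among them, with 0.28 (adjusted p = 0.361) without replicate 1 of HSM in LL. The interaction was 2.49 (SE 0.43, adjusted p = 2.95e-05), and the acetate effect was -4.43 in LL and -1.94 in HL (adjusted p = 7.39e-07).

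PHOT1, the blue light receptor phototropin, stood in LL at 213, 240 and 242 CPM in HSM and at 137, 122 and 127 CPM with acetate, and in HL at 135, 147 and 154 CPM and 148, 156 and 148 CPM. It fell in HSM to the level that acetate cultures had in both lights, and its interaction was 0.90 (adjusted p = 1.84e-05). CRCO, a Constans-type protein that acts with NF-Y subunits, had 0.85 (adjusted p = 3.65e-05), from 214, 201 and 218 CPM with acetate in LL to 378, 388 and 378 CPM in HL, while HSM held 393, 448 and 433 CPM in LL and 468, 412 and 397 CPM in HL. The UV-B receptor UVR8 had 0.48 (adjusted p = 0.0166).

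The regulator with the lowest value was DET1, known from plants as a part of the E3 ubiquitin ligase machinery that represses light responses. It stood in LL at 0.94, 0.80 and 1.39 CPM in HSM and at 2.51, 2.41 and 2.46 CPM with acetate, and in HL at 3.08, 3.53 and 3.83 CPM and 2.06, 2.07 and 2.04 CPM. The media thus changed places without overlap, with an interaction of -1.99 (SE 0.34, adjusted p = 3.06e-05). CUL4, the cullin of that machinery, had -0.67 (adjusted p = 0.0031) and SPA1, a partner of COP1-type ligases, had -0.64 (adjusted p = 0.0224), while DDB1, the adaptor of the same ligase, had -0.38 and did not pass the test.

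LCI8, an N-acetyltransferase that stands in the study's list of transcription factors but is likely an enzyme of arginine synthesis, had a lower interaction of -1.01 (adjusted p = 4.22e-05), with 6.36, 5.69 and 6.64 CPM in HSM and 18.7, 17.0 and 16.8 CPM with acetate in LL, and 35.2, 29.2 and 29.4 CPM and 44.1, 40.5 and 45.7 CPM in HL. The last lower gene of this list was QER5, at -1.01 (adjusted p = 0.000619). The NF-Y subunits NF-YB (0.13) and NF-YC (0.51), ROC75 (0.14), SAK1 (0.12) and COP1 (0.14) did not pass the test.

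The transcription factors and chromatin proteins that the study listed were tested for 371 genes, of which 44 (11.9%) had a higher interaction and 86 (23.2%) a lower one, beside 15.7% and 19.4% of all genes. Their median was -0.14, close to that of all genes, and with RLE scaling the counts were 51 and 75. Of the 86, 38 were raised by acetate in LL alone, and 45 rose in HL in HSM alone. These shares were near the 42.2% and 47.1% of all genes with a lower interaction. Among 18 families with at least 8 tested members, named as the study's table names them, 13 had more lower than higher calls. Lower calls also outnumbered higher ones over all genes, although not with RLE scaling, which gave 2386 higher and 2379 lower. SNF2 had 5 lower and 0 higher of 13, PHD had 3 and 0 of 8, RWP-RK had 4 and 1 of 11, and MYB_related had 6 and 2 of 18. SET had 3 and 0 of 13, near the 23.2% lower of all listed factors. GNAT and VARL went the other way, with 2 lower and 3 higher of 25 and 0 and 1 of 9. MYB, bHLH and the family named Orphans had as many lower as higher calls.

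The factor with the lowest interaction, -3.83 (SE 0.48, adjusted p = 2.11e-07), was the AP2 gene Cre08.g383000. It stood in LL at 0.61, 2.58 and 2.07 CPM in HSM and at 19.3, 19.2 and 13.42 CPM with acetate, and in HL at 7.50, 17.9 and 20.6 CPM and 11.4, 11.6 and 9.14 CPM. HL raised it by 3.13 in HSM, while its change with acetate, -0.69 (adjusted p = 0.0558), did not pass the test. The RWP-RK gene Cre06.g285600 had -2.03, rising in HSM from 7.99, 7.78 and 7.03 CPM to 15.6, 23.2 and 24.7 CPM, and going with acetate from 11.4, 12.4 and 14.9 CPM to 8.71, 7.79 and 9.84 CPM. The SET gene Cre09.g392542 also had -2.03, or -1.5 without the high replicate 1 of HSM in HL. The RB gene Cre06.g255450 had -1.44 (adjusted p = 1.25e-07), with 41.8, 48.7 and 52.2 CPM in HSM in HL above 18.9 to 31.8 CPM in the other 3 groups.

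On the higher side stood the TAZ gene Cre03.g212977 at 1.95 (adjusted p = 1.09e-05), the SBP gene Cre07.g345050 at 1.68 (adjusted p = 3.36e-09) and the GATA gene Cre05.g242600 at 1.39 (adjusted p = 4.86e-09). Cre05.g242600 had 51.5, 52.4 and 60.4 CPM in LL and 58.2, 50.8 and 51.4 CPM in HL in HSM, which overlapped. With acetate it went from 31.8, 29.6 and 28.9 CPM to 80.7, 76.7 and 73.0 CPM, from below HSM to above it. Cre07.g345050 crossed in the same manner, with 14.1, 16.7 and 15.9 CPM in HSM and 7.33, 6.22 and 6.89 CPM with acetate in LL, and 10.19, 11.05 and 12.0 CPM and 16.7, 15.9 and 14.37 CPM in HL.

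The largest values of all belonged to genes that no source used here names. Cre02.g144650 had the highest interaction, 7.73 (SE 0.74, adjusted p = 9.58e-10), with 15.4, 87.0 and 74.0 CPM in HSM and only 5, 2 and 9 counts with acetate in LL, and 236, 203 and 175 CPM and 132, 124 and 127 CPM in HL. Cre04.g223100, the neighbour of CAH2 in the RefSeq gene order, had 6.95 (SE 0.61, adjusted p = 1.56e-10). It stood in LL at 446, 1372 and 1151 CPM in HSM and at 2.41, 4.74 and 12.8 CPM with acetate, and in HL at 4539, 4463 and 3915 CPM and 3579, 3789 and 3462 CPM.

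The lowest interaction, -5.78 (SE 0.41, adjusted p = 7.15e-13), was that of Cre10.g428966. It stood in LL at 5.62, 7.20 and 5.68 CPM in HSM and at 224, 228 and 186 CPM with acetate, and in HL at 125, 135 and 137 CPM and 86.6, 74.0 and 88.2 CPM. HL thus raised it in HSM and lowered it with acetate, and its neighbour Cre10.g429000, named after its value was seen, had -3.36 (adjusted p = 1.13e-10). Cre17.g700950 had -4.12 (adjusted p = 0.000477), falling with acetate from 51.6, 38.2 and 24.6 CPM in LL to 2.397, 1.2 and 1.536 CPM in HL, beside at most 7 counts per library in HSM.

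The interaction after 60 min differed from that after 15 min of HL on the same day for 4373 genes (31.5%), 1935 of them higher and 2438 lower. At 15 min itself 29.0% of genes had an interaction. The comparison shares the LL libraries, which cancel, so it sets the HL libraries at 60 min against those at 15 min. For HLA3 the difference was 3.72 (adjusted p = 2.61e-06), from 0.51 at 15 min, and for CAH4 it was 4.43 (adjusted p = 8.8e-05), from 1.17. LCI1 and BST1 already had 4.41 and 3.61 at 15 min, and their differences were 1.59 (adjusted p = 0.00977) and 1.46 (adjusted p = 0.0183). The difference of BST1 lost its call when replicate 2 or 3 of HSM in HL or replicate 3 of acetate in HL was left out, and was 2.26 without replicate 1 of HSM in HL. LCIA had 1.92 (adjusted p = 0.0133), LHCSR3.1 2.78 (adjusted p = 0.000281) and LHCSR3.2 2.13 (adjusted p = 0.0033), while LCR1 had -0.26, LCIB -0.22 and LCIC 0.28 and did not pass the test. In the CCM list 26 of 71 differences were higher and 3 lower (backgrounds 13.9% and 17.6%).

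Day 2 gave a comparison with no shared libraries, HL for 60 min from 1440 min. The interaction there was called for 61.3% of genes and differed from day 1 for 6355 (45.8%), 3728 of them higher (26.8%) and 2627 lower (18.9%). Of the 4877 genes called on day 1, 2255 (46.2%) were called in the same direction on day 2, which is 26.5% of the day-2 calls, while 822 (16.9%) were called in the opposite direction. Of the genes higher on day 1, 50.8% were higher on day 2, beside 31.9% of all genes. Of those lower on day 1, 42.6% were lower on day 2, beside 29.4% of all genes. The mitochondrial carbonic anhydrase CAH4 lost its interaction, with 0.71 on day 2 and a difference of -4.89 (adjusted p = 0.00107). BST1 gained, with 9.12 on day 2 and a difference of 4.04 (adjusted p = 5.45e-05), and LHCSR1 differed by 3.31 (adjusted p = 1.83e-05). For the LHCSR3 genes the differences were -0.59 and 0.06, for LCI1 0.64 and for LCIA 2.15 (adjusted p = 0.101), none past the test, although that of LCIA passed with DESeq2. HLA3 had -1.66 (adjusted p = 0.0656), which passed with DESeq2, library size only (-2.94), the literal filter of the study and without replicate 1 of HSM in LL.

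**Figure D5:**
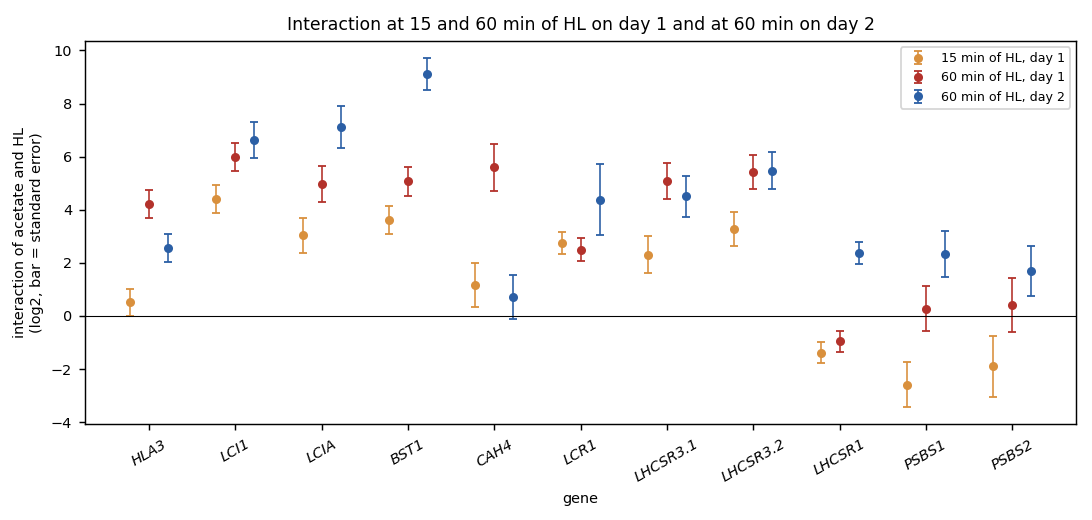
Log2 interaction of 11 genes after 15 and 60 min of HL on day 1 and after 60 min on day 2, as points with the SE of the fit as bars. HLA3 rises from 0.51 to 4.22 between 15 and 60 min, CAH4 drops back to 0.71 on day 2, and BST1 reaches 9.12 on day 2.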

How the data were processed

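The authors removed adapters (BBduk), mapped reads with STAR (version 2.5.3 per the submitters' processing notes) to the Phytozome transcriptome of assembly version 5, assigned them to genes by reverse strand (HTSeq-count), and deposited the raw counts with no normalization. The table held 17741 genes, 436 of them without a count, 0 columns that match no sample and 0 lines without a gene. Groups were taken from the sample labels. All 42 libraries entered 1 edgeR 4.0.16 model in R 4.3.3 (glmQLFit and glmQLFTest, a coefficient per condition, TMM scaling), for the 13886 genes that reached 1 CPM in 9 or more libraries, and the comparisons are contrasts of its coefficients. P-values were adjusted over these genes by Benjamini-Hochberg, and a gene was called under 0.05. CPM were computed with TMM-scaled totals and are not divided by gene length, so they are compared within a gene only. The 12 replicate pairs all differed by more than the sampling noise (chi-square per degree of freedom 7.23 to 52.96). The script was tested on simulated data.

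Members and gene lists were chosen with earlier results of these data known. Lists and names came from the supplementary tables of the study, and BST1 was placed by matching plotted z-scores to the counts (r = 0.9999). LHCSR3.1 and LHCSR3.2 are named as in those tables, although the plotted z-scores fit the reverse. RefSeq (assembly version 5.5, 13885 tested genes matched) served only for gene order, holds no products, and so lists defined by product words were not used. By rule, the genes named were the 11 with plotted z-scores, up to 4 of largest interaction in each list, the 10 named genes of largest interaction each way with at least 10 CPM that kept the call without any of the 12 libraries (30 such genes were higher and 4 lower), and 4 transcription factors each way. Members of small lists that are given in full, and RCA1, EPYC, SBE3, SBE4, STT7, RBCS1, RBCS2, CHR1, CHR2, PSBP2, PHOT1, CRCO, UVR8, SPA1, CIA5 and the genes known by identifier outside the transcription factors, were named after their values were seen. For the growth before HSM, the labels and the strain methods give 15 µmol photons of light, and the RNA-seq methods 5. All libraries of the series entered the filter, the scaling and the model, and so bear on every p-value. The contrasts themselves used fewer groups. The libraries after 15 min of HL on day 1, and those of the day-2 interaction, entered only the contrasts that concern these times. The libraries at 15 min in LL, and those after 15 min of HL on day 2, entered no contrast.

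The alternatives were RLE scaling, library size only, no filter (17305 genes), the literal filter of the study (11037), a filter on the 12 libraries (14020), DESeq2 1.42.0, limma-voom (limma 3.58.1), calls shared by the 3 tools, a log2 size of at least 1, only the libraries of each contrast, a block by replicate number or by culture number, and the fits without 1 of the libraries each. Plots were drawn with matplotlib 3.10.9 in Python 3.11.15 (NumPy 2.4.6, pandas 2.3.3).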

Additional observations from a re-analysis of the deposited data

Results flagged for a closer look

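Responses to the same factor that differed between groups by a test of the difference itself came up in 3 comparisons, all with edgeR's quasi-likelihood test. The light response differed between the media after 60 min of HL on day 1 for 2183 genes in the higher direction and 2694 in the lower. This interaction differed between 60 and 15 min of HL for 1935 higher and 2438 lower genes, and between day 2 and day 1 for 3728 higher and 2627 lower genes.

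Between 60 and 15 min the interaction differed by 3.72 for HLA3, 4.43 for CAH4, 1.46 for BST1, 1.59 for LCI1 and 1.92 for LCIA, and the calls of BST1 and LCI1 were lost when only library size was used for scaling. It differed by 2.78 for LHCSR3.1, 2.13 for LHCSR3.2, 2.86 for PSBS1 and 2.32 for PSBS2. The values of the PSBS genes at 15 min lay below 0 and those at 60 min did not pass the test. Between the days it differed by -4.89 for CAH4, 4.04 for BST1 and 3.31 for LHCSR1, higher on day 2 where above 0. The causes of these differences were not tested.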

How the results depend on the processing

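Of the alternative values of the named genes, 767 kept their direction and side of the threshold. Part of this was fixed in advance, since some genes were named because they kept the call without any of the 12 libraries. LHCBM8 lost its call in 15, with a range of -1.73 to -0.83 without 1 library, and LHCSR1 gained one in 3, with -1.22 (adjusted p = 0.0429) under library size only and a range of -1.30 to -0.13 without 1 library. PSBS1 turned to -0.25 without replicate 3 of HSM in LL, in a range of -0.25 to 0.54. Of the 4877 calls, 1563 higher and 1775 lower ones held without any of the 12 libraries. Counts of the interaction were 1888 to 2212 higher and 2296 to 2747 lower without 1 library.

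Under library size only, 934 interactions were higher. HL then lowered 1744 genes in HSM and 1726 with acetate, and acetate lowered 2238 in LL and 1765 in HL. The change between 15 and 60 min had 578 higher and 3953 lower calls, and between days 545 and 6262. Calls in the higher direction made up 25.9% of all calls of the interaction, where the reported fit has 44.8%, RLE 50.1% and DESeq2 49.7%. For the other comparisons they made up 81.0% beside 56.5% for HL in HSM, 72.6% beside 52.7% for HL with acetate, 73.9% beside 50.7% for acetate in LL, 65.2% beside 45.7% for acetate in HL, and 8.0% beside 58.7% between days. Between 15 and 60 min they were 12.8% beside 44.2%, and 58.1% with RLE and 58.5% with DESeq2. List medians under library size only were 0.54 for the CCM, 1.16 for carbonic anhydrases, -0.45 for early light-inducible proteins, -0.13 for regulators (turned in direction), -0.38 for photoprotection, -0.38 for transcription factors and -0.33 for all genes, a common shift of -0.24.

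Requiring a log2 size of at least 1 left 1320 higher and 1082 lower interactions, 2199 and 1963 calls for HL in HSM, 1428 and 1403 for HL with acetate, 2097 and 2255 for acetate in LL, 1238 and 1199 for acetate in HL, and 1064 and 1118 between 15 and 60 min. The literal filter gave 1616 lower calls between 15 and 60 min, and medians of 1.55 for carbonic anhydrases, 5.11 for qE effectors (both PSBS genes are then missing) and -0.07 for all genes. Without a filter the medians were 3.80 for transporters and -0.06 for all genes, and with limma-voom 3.86 for transporters. RLE, DESeq2 and the contrast libraries alone gave 0.18, 0.18 and 0.17 for regulators, -0.09 each for transcription factors and -0.04 each for all genes. The causes were not tested.

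With the replicate number as a block the interaction had 2226 higher and 2705 lower calls, and with the culture number 2250 and 2742. The numbers did not pair the libraries: deviations from group means correlated at -0.15 to 0.121 over 18 pairs with the same replicate number and at -0.122 to 0.112 over 13 pairs with the same culture number. Depth limits the genes with few counts in LL, such as the PSBS genes.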

Other observations

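Beside the highest single gene, Cre02.g144650, the next genes in the RefSeq order, Cre02.g144700 and Cre02.g144734, also had higher interactions, of 3.67 and 4.33. Cre02.g144700 stood in LL at 1.47, 5.29 and 5.05 CPM in HSM and at 0.13, 0.04 and 0.10 CPM with acetate, and in HL at 11.0, 7.29 and 4.99 CPM and 2.53, 2.53 and 2.47 CPM. Cre10.g429000, beside the gene with the lowest interaction, stood in LL at 33.0, 31.2 and 27.5 CPM in HSM and at 707, 722 and 591 CPM with acetate, and in HL at 145, 190 and 195 CPM and 392, 374 and 372 CPM. These genes were chosen after their values were seen, and reads shared between neighbours were not tested.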
